A study of Rattus norvegicus with 12 samples.

Results

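The two-pore leak K+ channels covered here were 9 Kcnk genes, Kcnk1, Kcnk2, Kcnk3, Kcnk4, Kcnk6, Kcnk9, Kcnk10, Kcnk12 and Kcnk13. Their members were every array probe whose gene name in the scanner files was one of these symbols, which gave 10 of the 41012 probes, 2 of them for Kcnk6 and 1 for each other gene. Messenger RNA came from dissociated hippocampal neurons of Sprague-Dawley rats, taken as embryos, grown at high density and treated at 10 to 13 days in vitro (DIV) for 48 h. The TTX group received tetrodotoxin, which blocks voltage-gated Na+ channels, at 0.5 to 1 μM, and the BC group received bicuculline, which blocks GABAA receptors, at 20 μM. The vehicle group (CTL) is labelled as 0.1% DMSO, while the study's methods name water as the vehicle of these cultures. The 12 RNA samples, 4 a group, went to 1 one-colour Agilent array each. No source used here ties the samples to separate cultures, and p-values therefore speak only of how these samples varied, which may be technical variation. The cultures were mixed, and in such bulk RNA a smaller number of cells of a type cannot be told apart from less RNA per cell. By immunostaining, the paper found nearly all cells to be neurons, most of these glutamatergic, with few GFAP-positive glia.

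Two-pore channels carry the background, or leak, K+ current that stays open at rest and depends little on voltage. Each subunit holds a pair of pore-forming loops and subunits assemble as dimers, and the current they pass sets the resting potential and the input resistance of a neuron. TREK1 (Kcnk2), TREK2 (Kcnk10) and TRAAK (Kcnk4) open with membrane stretch and with arachidonic acid, TASK1 (Kcnk3) and TASK3 (Kcnk9) close in acid, and TWIK1 (Kcnk1) and TWIK2 (Kcnk6) pass weak currents. THIK1 (Kcnk13) is inhibited by halothane, and its relative THIK2 (Kcnk12) is largely held inside the cell.

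All 10 probes were well above background on all 12 arrays and no member spot was saturated or left out. Values are the processed signal of each spot on a log2 scale after quantile normalization over the 12 arrays, and 74.1 to 78.1% of all probes per array were well above background. Every one of the 4 slides carried 1 CTL, 1 TTX and 1 BC array. Of cell type markers, all 9 neuron markers and all 10 astrocyte markers were well above background on all 12 arrays, against 5 of 10 microglia markers, with Aif1 and Itgam above background on none. By limma none of the neuron, astrocyte or microglia markers was called in TTX or BC against CTL, while 5, 1 and 2 of them had an unadjusted p under 0.05 in TTX and 2, 0 and 2 in BC. Over all probes, 21.9% had an unadjusted p under 0.05 in TTX against CTL and 19.4% in BC against CTL. The share of all probes called was 4.19% in TTX and 3.64% in BC. The summed signal of the neuron list was 94.9 to 106% of the CTL mean in CTL, 86.7 to 92.7% in TTX and 88.4 to 91.8% in BC. Of the 9 neuron markers, 2 had log2 differences above 0 in TTX and 1 in BC. The astrocyte sum was 87.6 to 115% in CTL, 85.2 to 123% in TTX and 85.6 to 105% in BC. Of 12 GABAergic interneuron markers, 8 were lower and 1 higher in TTX than in CTL, and 2 were higher and 1 lower in BC. The summed signal of the interneuron list was 39.3 to 42.0% of the CTL mean on the TTX arrays and 121 to 138% on the BC arrays, with the CTL arrays at 91.6 to 107%. Each such sum adds signals on the linear scale, so the brightest probes of a list weigh most in it. In TTX 3 of the 12 interneuron markers had log2 differences above 0, and in BC 7 did, with a median of 0.07 in BC. Of 8 glutamatergic neuron markers, 2 were higher in TTX and 2 lower in BC, and the summed signal was 135 to 152% of the CTL mean in TTX and 64.6 to 78.6% in BC. Of these 8, 6 had log2 differences above 0 in TTX and 2 in BC. Of 10 oligodendrocyte lineage markers, 1 was higher and 1, Pdgfra, lower in TTX and none was called in BC, and 5 in TTX and 0 in BC had an unadjusted p under 0.05 in limma. Their summed signal was 75.4 to 120% of the CTL mean in CTL, 103 to 165% in TTX and 88.9 to 109% in BC. The brightest of them, Olig1, was not called (log2 difference 0.47 in TTX). Of 11 vascular and fibroblast markers 2 were lower in TTX and 2 higher in BC, and their summed signal was 84.5 to 122% of the CTL mean in CTL, 79.2 to 99.9% in TTX and 134 to 224% in BC. The 224% was BC replicate 2, and the other BC arrays lay at 134 to 139%. Of these 11 markers, 6 had log2 differences above 0 in TTX and 8 in BC.

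Each probe is 60 bases long, and the stretch of transcript it reads is what every value below refers to. The probes of the 5 genes that passed the thresholds in at least 1 comparison are shown 5′ to 3′, whole for Kcnk4, Kcnk12 and Kcnk3 and by their first 30 bases for Kcnk2 and Kcnk13. Positions are those of the scanner files, on the rat build rn4, and whether a probe lies in coding sequence or a UTR was not determined because no annotation of that build was used here. The Kcnk2 probe lies on the minus strand at chr13:105376012-105376071, the Kcnk4 probe on the minus strand at chr1:209602329-209602388 and the Kcnk12 probe on the minus strand at chr6:11282304-11282363. The Kcnk13 probe lies on the plus strand at chr6:124175968-124176027 and the Kcnk3 probe on the minus strand at chr6:25746848-25746907. Across the 10 member probes and the 4 probes of other two-pore genes, the longest run of bases that any pair of probes shared was 11.
Kcnk2: ttcttgaaggctgatgtggtgggatgtacc
Kcnk4: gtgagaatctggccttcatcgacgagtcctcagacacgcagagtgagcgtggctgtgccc
Kcnk12: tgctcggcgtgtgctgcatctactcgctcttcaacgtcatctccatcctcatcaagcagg
Kcnk13: agcctaccgcttactgtgttctttctgaat
Kcnk3: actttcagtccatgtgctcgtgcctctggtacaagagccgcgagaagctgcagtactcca

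With activity blocked by TTX, the transcripts of TRAAK (Kcnk4) and THIK2 (Kcnk12) were lower than in CTL, at 0.54 and 0.59 of the CTL level, and no two-pore channel transcript passed the thresholds upward. A probe was called when its Benjamini-Hochberg FDR from limma, taken over all probes tested, was under 0.05 and it differed at least 1.5-fold. By this rule 2 of the 10 probes were called in TTX against CTL, both lower, where 4.19% of all probes were called, 2.74% lower and 1.45% higher. The groups did not overlap for 4 of the 10 probes, against 15.8% of all probes. The median log2 difference of the 10 probes was −0.30, and that of all probes was 0.01. With BC, the transcript of TREK1 (Kcnk2) was 1.67-fold higher than in CTL and that of THIK1 (Kcnk13) was at 0.66 of the CTL level, just past the threshold. These were 2 of the 10 probes, where 3.64% of all probes were called in BC against CTL, 2.12% higher and 1.52% lower. The groups did not overlap for 3 of the 10 probes, against 13.8% of all probes, and the median log2 difference was 0.12, with −0.01 over all probes.

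Set directly against each other, the 2 treatments differed in 5 of the 9 genes. Kcnk2, Kcnk12, Kcnk3 and Kcnk4 were lower in TTX than in BC, and Kcnk13 was higher. These 5 of 10 probes were called where 11.2% of all probes were, 6.22% lower and 4.95% higher. The groups did not overlap for 6 of the 10 probes, against 26.6% of all probes. Both differences from CTL rest on the same 4 CTL arrays, and the errors of all 3 comparisons come from 1 fit to the 12 arrays.

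**Figure D1:**
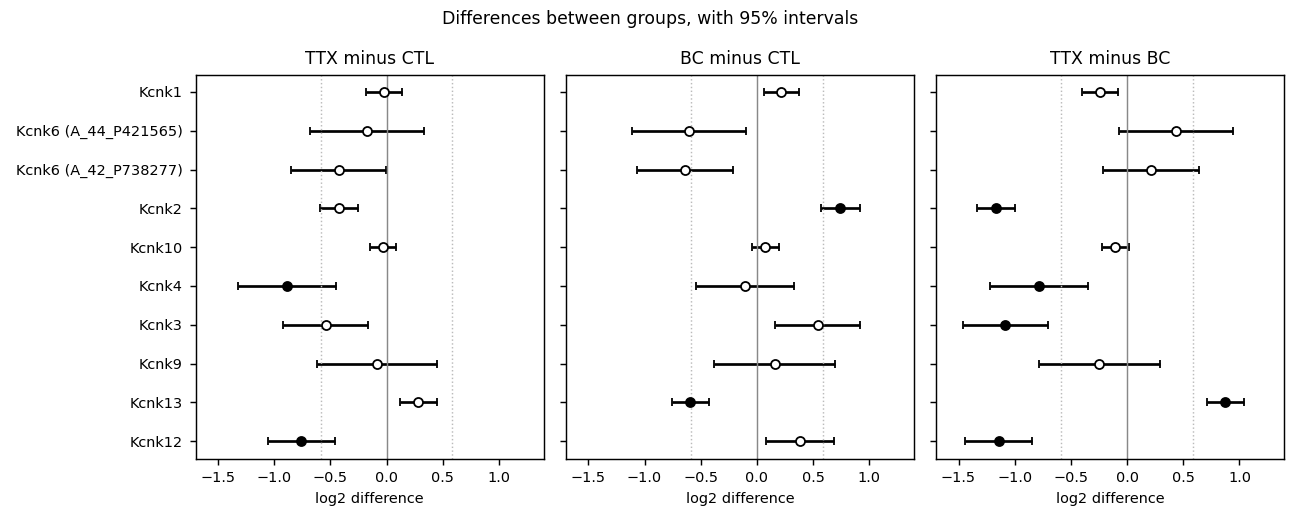
Log2 difference of each two-pore channel probe (x axis) in TTX minus CTL, BC minus CTL and TTX minus BC, with its 95% limma interval over 4 arrays a group. Filled points passed the FDR and fold thresholds, and dotted lines mark the fold thresholds. Kcnk4 and Kcnk12 are filled on the left, Kcnk2 and Kcnk13 in the middle, and 5 probes on the right.

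Kcnk2 encodes TREK1, a stretch-activated channel that Gq-coupled receptors close. Its log2 signal was 12.11, 12.06, 12.003 and 11.91 in CTL, 11.55, 11.56, 11.57 and 11.71 in TTX, and 12.68, 12.75, 12.95 and 12.67 in BC. The 3 groups did not overlap, with all TTX arrays below and all BC arrays above the CTL arrays. The probe rose with BC by 0.74 ± 0.0776 (SE, n = 4, limma adjusted p = 0.000258). In TTX the log2 difference from CTL was −0.42 ± 0.0776 (SE, limma adjusted p = 0.00622), a ratio of 0.75 that did not reach the fold threshold. TTX lay below BC by a log2 difference of −1.17 ± 0.0776 (SE, limma adjusted p = 2.38e-06), and the 4 within-slide differences ran from −1.40 to −1.04. This was a 2.24-fold lower level, and it was called in all 26 alternative settings. The call in BC against CTL was lost in 2 of 26 settings, one with the labels' replicate numbers as a block and only the 2 groups fitted (limma adjusted p = 0.073) and one with the arrays of a group averaged over slides 1 and 3 and over slides 2 and 4 (limma adjusted p = 0.077).

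Kcnk4 encodes TRAAK, a mechanically gated channel of neurons. Its log2 signal was 10.25, 10.29, 9.87 and 9.74 in CTL, 9.44, 9.36, 8.87 and 8.95 in TTX, and 9.67, 9.64, 10.20 and 10.23 in BC. All 4 TTX arrays lay below every array of the other groups, and the CTL and BC arrays overlapped. The probe fell by 0.89 ± 0.197 on the log2 scale with TTX (SE, n = 4, limma adjusted p = 0.0167), to 0.54 of CTL, and the within-slide differences ran only from −0.92 to −0.86. In BC the log2 difference from CTL was −0.11, with a 95% interval of −0.54 to 0.33. TTX lay below BC by a log2 difference of −0.78 ± 0.197 (SE, limma adjusted p = 0.0144). The TTX call was lost in 2 of 26 settings, without TTX replicate 3 (limma adjusted p = 0.0515) and with a replicate block (limma adjusted p = 0.0654). Over all settings its limma adjusted p ran from 5.21e-06 to 0.0654. The call against BC was lost in 1 of 26 settings, with the replicate block on only the 2 groups (limma adjusted p = 0.152).

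Kcnk10, which encodes TREK2, was the member with the smallest standard error in the fit (0.0539). Its log2 signal ran from 8.80 to 8.86 in CTL, from 8.71 to 8.91 in TTX and from 8.88 to 8.96 in BC. The BC arrays all lay above the CTL arrays, but the log2 difference was 0.07 with a 95% interval of −0.05 to 0.19 (limma adjusted p = 0.56). In TTX the difference was −0.03, with an interval of −0.15 to 0.09. Its intervals against CTL therefore lay inside the fold thresholds in both comparisons.

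Kcnk12 encodes THIK2. Its log2 signal was 11.79, 11.62, 11.55 and 11.41 in CTL, 10.94, 10.998, 10.62 and 10.77 in TTX, and 11.82, 11.77, 12.33 and 11.99 in BC. All TTX arrays lay below every CTL and BC array, and BC replicate 2 lay below CTL replicate 1. The probe fell by 0.76 ± 0.135 on the log2 scale with TTX (SE, n = 4, limma adjusted p = 0.00527), and in BC the log2 difference from CTL was 0.38 ± 0.135 (SE, limma adjusted p = 0.127). Within slides the BC difference ran from 0.22 to 0.54. It was called in none of the 26 settings, with limma adjusted p from 0.00389 to 0.437. TTX lay below BC by −1.14 ± 0.135 (SE, limma adjusted p = 0.000128), a 2.21-fold lower level called in all 26 alternative settings. The call against CTL was lost in 1 of 26 settings, with the arrays of a group averaged over those pairs of slides (limma adjusted p = 0.0505).

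Kcnk13 encodes THIK1, which carries leak current in several cell types and is prominent in microglia. Its log2 signal was 10.29, 10.25, 10.09 and 10.28 in CTL, 10.42, 10.46, 10.50 and 10.65 in TTX, and 9.76, 9.56, 9.59 and 9.63 in BC. The 3 groups did not overlap, and their order was the reverse of that of Kcnk2, with BC lowest and TTX highest. The probe fell by 0.59 ± 0.0738 on the log2 scale with BC (SE, n = 4, limma adjusted p = 0.000701), to 0.66 of CTL. In TTX the log2 difference from CTL was 0.28 ± 0.0738 (SE, limma adjusted p = 0.0363), a 1.22-fold difference under the fold threshold. TTX lay above BC by 0.87 ± 0.0738 (SE, limma adjusted p = 1.18e-05), or 1.83-fold, in all 26 alternative settings. The summed signal of the microglia markers was 92.5 to 108% of the CTL mean in CTL, 84.6 to 99.2% in BC and 80.3 to 97.9% in TTX, and this sum includes probes not above background. Single microglia markers moved both ways between the treatments. P2ry12, a purinergic receptor of microglia, had the order of Kcnk13, with log2 differences from CTL of 0.56 in TTX and −0.33 in BC (neither called), and was higher in TTX than in BC by 0.89 ± 0.19 (SE, limma adjusted p = 0.00579). Trem2, a lipid receptor of microglia, was lower in TTX than in BC, with a log2 difference of −0.71 ± 0.168 (SE, limma adjusted p = 0.0102). Cd68, the brightest microglia marker, was below CTL in both treatments, under the fold threshold. Its log2 differences were −0.51 in TTX (limma adjusted p = 0.0137) and −0.43 in BC (limma adjusted p = 0.0371). Of the 10 microglia markers, 6 had differences above 0 in TTX and 5 in BC. The summed signal of the glutamatergic neuron markers also had the order of Kcnk13, at 135 to 152% of the CTL mean in TTX, 89.8 to 113% in CTL and 64.6 to 78.6% in BC. Whether microglia or glutamatergic neurons had a part in the Kcnk13 result was not tested. The BC call sat at the fold threshold and was lost in 9 of 26 settings, among them those without CTL replicate 1, CTL replicate 4, BC replicate 2 or BC replicate 3, with log2 differences of −0.55 to −0.64 over all settings.

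Kcnk3 encodes TASK1, an acid-sensitive channel. Its log2 signal was 6.57, 6.81, 6.61 and 6.13 in CTL, 5.95, 6.35, 5.81 and 5.84 in TTX, and 6.80, 6.99, 7.19 and 7.31 in BC. The CTL arrays lay between and overlapped with both treatments, whereas TTX and BC did not overlap. The log2 difference from CTL was −0.54 ± 0.171 in TTX (SE, n = 4, limma adjusted p = 0.0753) and 0.54 ± 0.171 in BC (SE, limma adjusted p = 0.0861), and neither was called. Within slides these differences ran from −0.86 to −0.23 in TTX and from 0.37 to 0.68 in BC. The BC difference was called in none of the 26 settings, with limma adjusted p from 0.0128 to 0.367. TTX lay below BC by −1.09 ± 0.171 (SE, limma adjusted p = 0.000891), a 2.12-fold lower level called in all 26 alternative settings. Without CTL replicate 4 or without TTX replicate 2 the difference between TTX and CTL was called, at −0.68 and −0.66 (limma adjusted p = 0.0257 and 0.0396). Kcnk9, which encodes the related TASK3, ran from 8.61 to 9.42 in CTL, from 8.64 to 9.33 in TTX and from 8.86 to 9.61 in BC. Its groups overlapped widely, and its log2 differences from CTL were −0.09 in TTX, with a 95% interval of −0.62 to 0.45, and 0.16 in BC, with an interval of −0.38 to 0.69. With slide as a block the SE of both differences was 0.061 in place of 0.242 (limma adjusted p = 0.391 in TTX and 0.135 in BC), and the within-slide differences from CTL ran from −0.23 to 0.03 in TTX and from 0.01 to 0.25 in BC.

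Kcnk1 encodes TWIK1, a weakly rectifying channel. Its log2 signal ran from 10.02 to 10.16 in CTL, from 9.99 to 10.14 in TTX and from 10.14 to 10.40 in BC. The log2 difference from CTL was −0.02 in TTX (95% interval −0.18 to 0.13) and 0.22 in BC (95% interval 0.06 to 0.38, limma adjusted p = 0.0999). TTX lay below BC by −0.24 ± 0.0713 (SE, n = 4, limma adjusted p = 0.0312) with no overlap, under the fold threshold. Kcnk6, which encodes TWIK2, had a pair of probes on chromosome 1, A_42_P738277 and A_44_P421565. On A_42_P738277 its log2 signal was 8.87, 8.76, 8.65 and 8.38 in CTL, 8.37, 8.40, 7.999 and 8.17 in TTX, and 7.65, 7.69, 8.38 and 8.38 in BC. BC replicates 3 and 4, on slides 1 and 3, lay on average 0.71 above the other BC arrays, and BC replicate 3 lay just above the lowest CTL array. The log2 difference of BC from CTL was −0.64 ± 0.192 on this probe (SE, n = 4, limma adjusted p = 0.0716) and −0.61 ± 0.229 on A_44_P421565 (SE, limma adjusted p = 0.157), so both probes lay in the same direction and neither was called. With slide as a block both were called (limma adjusted p = 0.00578 and 0.033), with the BC array below the CTL array on all 4 slides. In TTX the differences from CTL were −0.43 and −0.17, and neither was called. Within slides they ran from −0.47 to −0.38 on A_42_P738277 and from −0.39 to 0.07 on A_44_P421565. On A_42_P738277 the limma adjusted p in TTX ran from 0.0148 to 0.472 over 27 settings, with no call.

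**Figure D2:**
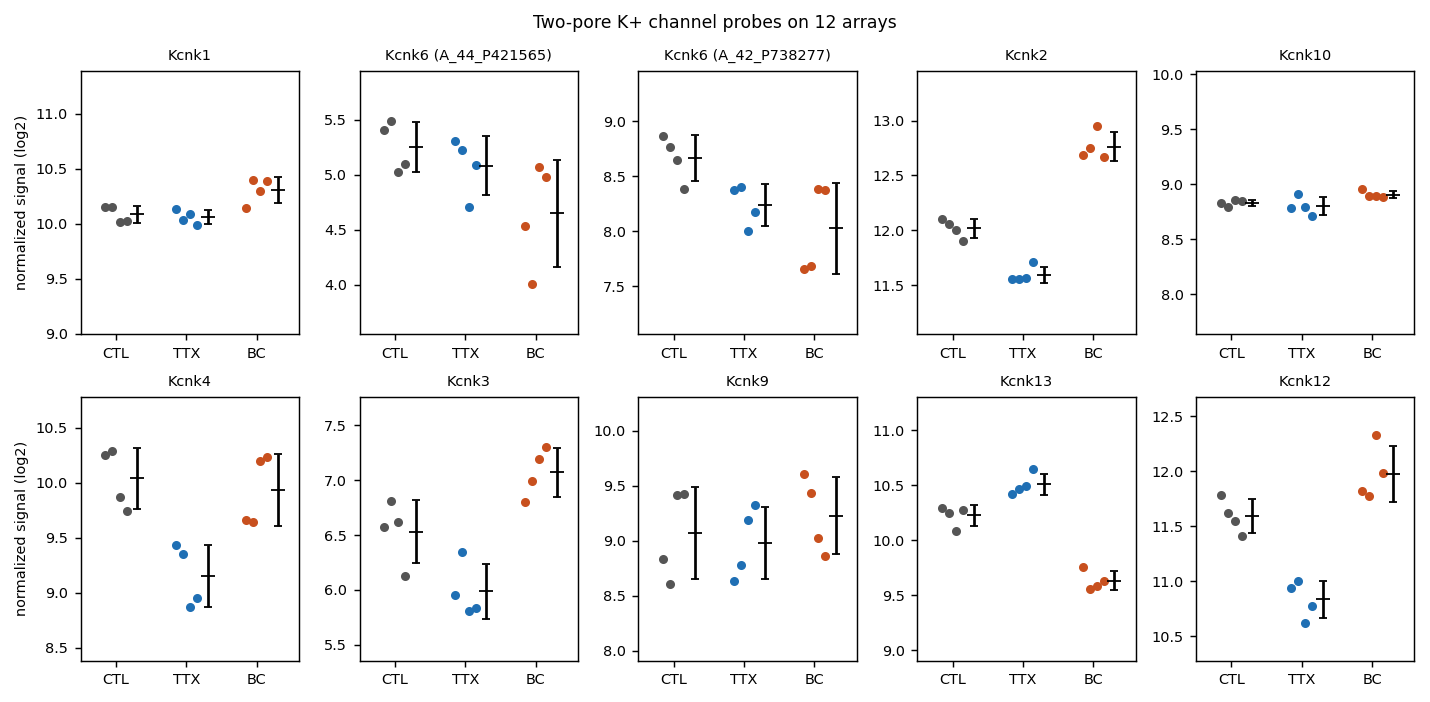
Normalized log2 signal (y axis, each panel spanning 2.4 log2 units) of each two-pore channel probe on the 4 CTL, 4 TTX and 4 BC arrays, replicates 1 to 4 from left to right. Bars are the mean ± SD of the 4 arrays. The TTX arrays of Kcnk4 and Kcnk12 lie below all others, and Kcnk2 and Kcnk13 order the groups in opposite ways.

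Several members differed between slides. Slides 1 and 3 formed one set and slides 2 and 4 another, and the deviations of arrays from their group means, taken over all probes, correlated between groups at 0.44 to 0.71 within a set and at −0.72 to −0.44 between sets. What differed between the sets is not stated in the labels. Kcnk4 lay above its group mean on all 6 arrays of slides 1 and 3 and below it on the other 6, with a mean set difference of 0.50 on the log2 scale. Kcnk12 (0.29) and Kcnk6 on A_42_P738277 (0.44) were split in the same way, and Kcnk9 was split in the opposite way, with a set difference of −0.61. Such a complete split was found for 18.2% of the 40818 probes with a value on all 12 arrays. The set difference was 0.05 for Kcnk2, −0.03 for Kcnk13 and 0.01 for Kcnk10. Since each slide held 1 array of each group, the set was balanced over the groups. Within slides 1 and 3 the TTX difference from CTL was −0.88 for Kcnk4 and −0.74 for Kcnk12, and within slides 2 and 4 it was −0.90 and −0.78. For Kcnk2 the BC difference from CTL was 0.73 and 0.76 in the 2 sets, and for Kcnk13 it was −0.66 and −0.52.

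**Figure D3:**
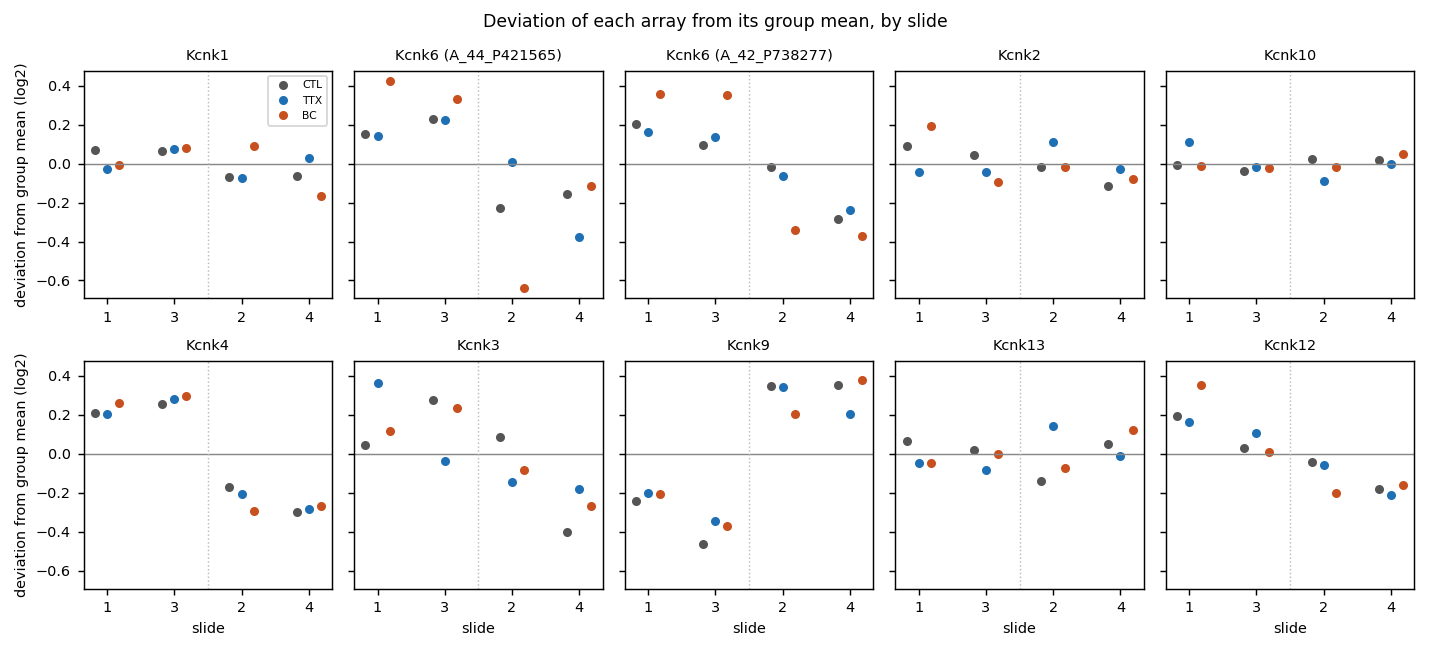
Deviation of each array from the mean of its own group (y axis, log2) for each two-pore channel probe, by slide (x axis), with slides 1 and 3 left of the dotted line and slides 2 and 4 right of it. Kcnk4 and Kcnk6 lie higher on slides 1 and 3, Kcnk9 lies lower there, and Kcnk2, Kcnk10 and Kcnk13 show set differences between −0.03 and 0.05.

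Of 6 other two-pore channel genes, 4 had a probe, that of Kcnk7 named through a synonym. By limma none was called, or had an unadjusted p under 0.05, in any of the 3 comparisons. Kcnk5 (TASK2) had a mean log2 signal of 6.36 ± 0.411 in CTL, 6.65 ± 0.139 in TTX and 6.64 ± 0.187 in BC (SD, n = 4), and Kcnk7 one of 4.25 ± 0.222, 4.19 ± 0.0483 and 4.17 ± 0.319. Kcnk15 was well above background on 1 of the 12 arrays, CTL replicate 4, and Kcnk18 on none. Kcnk16 and Kcnk17 were not matched.

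Among 76 other genes with a Kcn symbol, which encode voltage-gated, inwardly rectifying and Ca2+-activated K+ channels and their auxiliary subunits, 12 were lower and 3 higher in TTX than in CTL. Of all probes, 2.74% were called lower and 1.45% higher in TTX. The median log2 difference of the 76 genes was −0.10. Those that differed most in TTX were Kcns3, a silent subunit of Kv2 channels (−1.66 ± 0.0569, limma adjusted p = 1.6e-07), Kcnc2, a fast-deactivating Kv3 channel (−1.61 ± 0.121, limma adjusted p = 2.62e-05), Kcnj16, an inward rectifier subunit (1.14 ± 0.208, limma adjusted p = 0.00615) and Kcnab3, an auxiliary Kv1 subunit (−1.11 ± 0.162, limma adjusted p = 0.00169). In BC 5 were higher and 4 lower, against 2.12% and 1.52% of all probes, with a median of −0.01. The 4 of greatest size in BC were Kcnj5 (1.62 ± 0.369, with 1 of 4 CTL arrays well above background), Kcng3 (−0.93 ± 0.153), Kcnmb4 (−0.83 ± 0.111) and Kcnmb2 (0.83 ± 0.142), each ± SE. In TTX against BC 20 were lower and 7 higher, against 6.22% and 4.95% of all probes.

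Of 20 genes whose products bind or modify two-pore channels, 1 was called in TTX and none in BC, against 4.19% and 3.64% of all probes. An unadjusted p under 0.05 in limma was found for 5 in TTX and 6 in BC, against 21.9% and 19.4% of all probes. Akap5, the anchoring protein AKAP79/150 that binds TREK1, fell by 1.05 ± 0.0517 on the log2 scale with TTX (SE, n = 4, limma adjusted p = 2.19e-06), and in BC its log2 difference was −0.13 (limma adjusted p = 0.204). The 14-3-3 genes, the coatomer subunit Copb1, syntaxin 8 (Stx8) and S100a10, which act on TASK or TREK channels at the membrane or on their way to it, were not called. Of 17 genes for Gq-coupled receptors and their G proteins and phospholipases, which close TREK and TASK channels, 1 was higher and 3 were lower in TTX. In BC none was higher and 2 were lower. The shares over all probes were the same 4.19% in TTX and 3.64% in BC. Of the 17, 8 in TTX and 5 in BC had an unadjusted p under 0.05 in limma. The adrenergic receptor gene Adra1d differed from CTL by −0.99 in TTX and by −1.17 in BC, both called. Adra1b (−0.76) and the serotonin receptor gene Htr2c (−0.61) were lower in TTX. Of 3 measured genes of the Na+ leak channel complex, whose inward current opposes K+ leak, none was called against CTL (1 in TTX and 1 in BC had an unadjusted p under 0.05 in limma), and Nalcn itself differed by −0.31 in TTX (limma adjusted p = 0.0263) and by 0.18 in BC (limma adjusted p = 0.202). Whether the shift of the interneuron markers described above had a part in these differences was not tested.

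**Figure D4:**
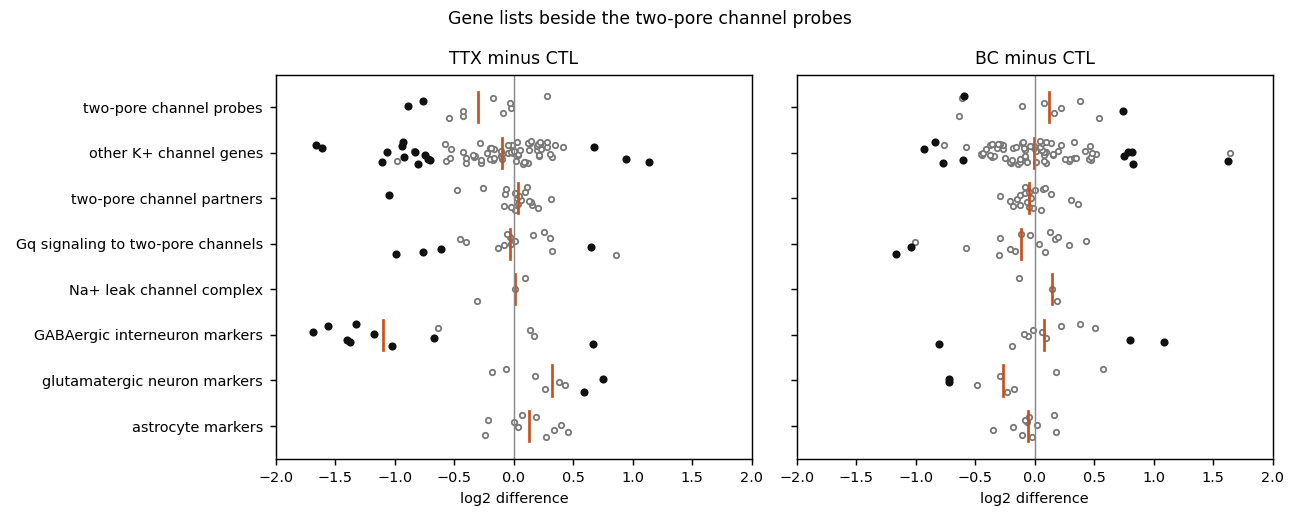
Log2 differences (x axis) in TTX minus CTL and BC minus CTL for the 10 two-pore channel probes and for the genes of 7 lists, 1 probe a gene. Filled points passed the thresholds and orange bars are medians. The interneuron list has its median at −1.10 in TTX and at 0.07 in BC, and the two-pore probes at −0.30 and 0.12.

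For the 4 probes called against CTL, the genes with the most similar levels over the 12 arrays were sought among 15036 probes well above background on all of them. The points share the 3 group means and the slide sets, so the values are a description. Kcnk4 was most like Letm2 (r = 0.985), C2cd2l (r = 0.981) and Il1rap (r = 0.981), and Kcnk12 most like Tyro3 (r = 0.989), Pdxk (r = 0.988) and Urm1 (r = 0.988). Kcnk2 was most like Chst8 (r = 0.991), Hpse (r = 0.99) and Hs6st1 (r = 0.989). Among those most like Kcnk13 were Skap2 (r = 0.986) and Mcub (r = 0.982). After the group means were removed, the values with Kcnk4 and Kcnk12 were 0.93 to 0.97 and those with Kcnk2 and Kcnk13 were 0.55 to 0.87. Among the members, the closest pair after the group means were removed was Kcnk4 and Kcnk6 on A_42_P738277 (r = 0.924), and Kcnk4 and Kcnk9 ran opposite (r = −0.952), as the slide sets split them.

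The promoters of 3 of the 9 genes were in the RefSeq table used here, for build GRCr8, and are shown because these genes, Kcnk2, Kcnk4 and Kcnk13, were each called against CTL. Each window holds 250 bases before and 50 after a gene start, 5′ to 3′ on the gene's strand, with capitals for motif matches. On both strands, 5 motifs were searched, the CRE half-site TGACG, the full CRE TGACGTCA, which contains it, the AP-1 motif TGANTCA, the EGR motif GCGNGGGCG and the GC box GGGCGG. Over all 33469 windows of this length, 21.2% held the CRE half-site, 1.83% the full CRE, 7.33% the AP-1 motif, 4.98% the EGR motif and 33.1% the GC box. The Kcnk4 window at chr1:213555812-213556111 on the minus strand held 1 GC box, which began at −25 from the start, and none of the other motifs. The Kcnk13 window at chr6:124971559-124971858 on the plus strand and the 2 Kcnk2 windows, at chr13:103438593-103438892 and chr13:103494637-103494936 on the minus strand, held none of the 5. The windows were 56.7% G and C for Kcnk4, 69.0% for Kcnk13 and 44.3% and 41.7% for Kcnk2, where the median of all windows was 51.7%.
Kcnk4: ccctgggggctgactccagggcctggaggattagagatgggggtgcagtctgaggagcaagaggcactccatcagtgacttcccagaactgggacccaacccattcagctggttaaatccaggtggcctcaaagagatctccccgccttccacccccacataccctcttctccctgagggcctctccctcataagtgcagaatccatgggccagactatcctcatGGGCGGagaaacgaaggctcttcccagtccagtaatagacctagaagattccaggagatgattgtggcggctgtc
Kcnk13: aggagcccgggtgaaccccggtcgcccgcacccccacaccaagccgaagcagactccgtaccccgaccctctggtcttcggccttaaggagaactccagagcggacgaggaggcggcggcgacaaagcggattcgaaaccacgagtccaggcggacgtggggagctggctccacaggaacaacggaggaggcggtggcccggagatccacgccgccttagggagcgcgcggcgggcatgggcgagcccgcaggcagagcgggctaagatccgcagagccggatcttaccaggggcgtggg
Kcnk2, first window: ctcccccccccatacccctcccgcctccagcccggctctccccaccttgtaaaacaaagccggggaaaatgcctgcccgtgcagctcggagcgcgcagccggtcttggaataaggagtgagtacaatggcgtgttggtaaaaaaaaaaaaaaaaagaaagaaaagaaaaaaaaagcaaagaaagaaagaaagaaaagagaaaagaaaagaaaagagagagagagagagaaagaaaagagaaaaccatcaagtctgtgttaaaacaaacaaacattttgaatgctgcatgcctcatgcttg
Kcnk2, second window: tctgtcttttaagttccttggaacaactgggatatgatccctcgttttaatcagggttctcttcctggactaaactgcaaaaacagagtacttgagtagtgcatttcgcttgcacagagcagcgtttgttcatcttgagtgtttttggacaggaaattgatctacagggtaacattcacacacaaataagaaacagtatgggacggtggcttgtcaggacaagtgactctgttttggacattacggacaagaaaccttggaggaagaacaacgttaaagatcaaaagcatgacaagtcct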

How the data were processed

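RNA of 12 samples was measured on one-colour Agilent arrays. The authors deposited scanner intensities, which Feature Extraction 9.5.1.1 had corrected for background within each array, and log2 values that they had quantile-normalized. Those log2 values follow the rank order of uncorrected median spot signals and served only as an alternative. The processed intensities were taken to log2, the 13 to 40 outlier spots of an array were dropped, and the 12 arrays were quantile-normalized. Group means were fitted to all 12 arrays with limma 3.58.1 (lmFit and eBayes, R 4.3.3). FDR was adjusted over the probes tested, which were 41009 for TTX against CTL and for TTX against BC and 41007 for BC against CTL. Thresholds were an FDR under 0.05 and a 1.5-fold difference. Dim probes were kept. The number of arrays limits the precision, and levels of different member probes are not compared.

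Probes were named through the GRCr8 table of RefSeq: 10813 by accession, 5133 by symbol, 3455 by synonym and 152 by a synonym in the description, while 21459 kept the name in the files. A gene of a list was represented by its probe of highest mean signal. The members, lists and motifs were chosen with earlier results of these data known. The text names all member probes, all probes of other two-pore genes, up to 4 called genes of a list by size in each comparison with CTL, and the 3 genes most like each member called against CTL, except for genes that are not reported here. Other genes (the 14-3-3 genes, Copb1, Stx8, S100a10, Nalcn and single markers) were chosen after their values were seen. The steps were tested on simulated data with noise independent between arrays. That test held no slide sets, so it does not cover their effect on the error rate. Python 3.11.15 with pandas 2.3.3, matplotlib 3.10.9 and numpy 2.4.6 and the R package data.table (version 1.17.8) handled files and figures.

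Alternatives changed the background correction (normexp with offset 50, or uncorrected median signal), the scaling (75th percentile instead of quantiles), the values (the deposited log2 table), the filter (probes well above background), the block (slide, slide set, meaning slides 1 and 3 or slides 2 and 4, or replicate number, or slide-set arrays averaged or as a random block), the samples fitted (the 2 groups compared, or 1 array left out), the variance moderation (trend and robust), the fold threshold (none) and the choice of probe (a mean over probes).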

Additional observations from a re-analysis of the deposited data

Results flagged for a closer look

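A single array stood apart from the other 3 of its group in 3 of 42 groups checked by Dixon's test, or 7.14%, where chance sets apart about 1 in 20. Kcnk2 in TTX replicate 4 was the highest of its group at a log2 signal of 11.7086, with the next at 11.5688, and it lay below all CTL arrays. Kcnk5 in CTL replicate 3 was the lowest of its group at 5.74714, with the next at 6.49262. Kcnk15 in TTX replicate 3 was the highest of its group at 2.10285, where none of the TTX arrays was well above background for this probe. The causes were not tested.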

How the results depend on the processing

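No difference of a two-pore channel probe changed direction where it was called. Of TTX against BC, the number of member probes called was 5, was 4 to 6 in the other settings and was 5 without any 1 array. Of TTX against CTL it was 2. It was 4 with no fold threshold (Kcnk2 and Kcnk13 added), 1 with arrays averaged within slide sets, and 1 with the replicate block, and leaving out 1 array gave 1 to 3 probes. Of BC against CTL it was 2. It was 1 with normexp, with median signal and with the deposited log2 values, 4 with slide and 4 with slide set as a block (both Kcnk6 probes added), and 0 with the replicate block on only the 2 groups compared and 0 with arrays averaged within slide sets, and leaving out 1 array gave 1 to 2 probes. The A_42_P738277 probe of Kcnk6 was also called among only probes well above background (adjusted p = 0.047). Whether the replicate numbers marked a pairing cannot be told from these values, because the numbers follow the slide sets. Same-numbered TTX and CTL arrays lay in the same slide set, and the BC array of that number lay in the other set. Same-numbered arrays had deviations that correlated at 0.587 to 0.713 for TTX/CTL, at −0.663 to −0.52 for BC/CTL and at −0.651 to −0.605 for TTX/BC. Of 12 arrays, 2 matched their own number best. With the replicate block, 1453 probes in all were called in TTX against CTL, 1307 in BC against CTL and 4356 in TTX against BC, and on only the 2 groups 241 were called in BC against CTL. Over all probes, 1718, 1493 and 4581 were called in the comparisons TTX/CTL, BC/CTL and TTX/BC. These became 883, 762 and 2593 with normexp, 950, 830 and 2757 with median signal, 941, 830 and 2730 with the deposited log2 values, and 4054, 3361 and 9867 with no fold threshold. With arrays averaged within slide sets they became 512, 0 and 4258, with 9133 probes at an unadjusted p under 0.05 in BC against CTL. Fewer samples entered that fit. Kcnk15 and Kcnk18, near background, bear no statement on change.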
